A study of Mus musculus with 6 samples.

Results

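The genes described here are 39 interferon response genes, chosen by symbol and known role: the chains of the type I and type II interferon receptors, the transcription factors that act behind them, and the antiviral and immune genes that interferons induce. All 39 were among the 23337 genes of the deposited table. Of these members, 29 had enough reads for a test, and 10 did not. Across the whole table, 9653 genes were tested.

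Interferons are secreted proteins that warn cells of infection. Type I interferons bind the receptor made of IFNAR1 and IFNAR2, and interferon gamma binds the receptor made of IFNGR1 and IFNGR2. Both receptors switch on STAT proteins through Janus kinases. A complex that holds STAT2 and IRF9 binds a DNA element called the interferon-stimulated response element (ISRE), and interferon gamma acts largely through a second element called the gamma-activated site (GAS). Germinal centre (GC) B cells carry both receptors, and type I and type II interferons are known to shape GC reactions and antibody class switching.

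The study asked what loss of the receptor HVEM (Tnfrsf14) changes in GC B cells that compete with normal cells in the same animals. Lethally irradiated hosts received mixed bone marrow, were left for 8 weeks to rebuild their blood cells, and were immunized with NP-CGG, a hapten on a carrier protein, in alum. GC B cells were sorted at day 11 as B220+ IgDlo CD38lo GL7+ Fas+ cells, 50000 per sample. RNA was amplified and sequenced from 3 Hvem-/- samples (C57BL/6, CD45.2, replicates 2, 4 and 6) and 3 WT samples (C57BL/6, CD45.1/2 by the sample labels, replicates 1, 3 and 5). In every group the cells came from irradiated, reconstituted mice and had met the same immunization, Hvem was lost from all blood cells of the CD45.2 donor and not from B cells alone, and Hvem genotype and donor line cannot be told apart. The study's methods describe adult CD45.1 mice, and donors and recipients of both sexes; age and sex are not given per sample. No source says which Hvem-/- and WT samples came from the same mouse, or that replicates came from separate mice, so p-values measure only the spread between these samples.

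Reads counted to genes numbered 2505918 to 3321048 per Hvem-/- library and 2557741 to 3636163 per WT library. Tnfrsf14 itself had 0, 0 and 4 reads in the Hvem-/- libraries and 13, 11 and 17 reads in the WT libraries. The GC B cell gene Bcl6 was present in every library, at 2726, 2783 and 2748 normalized counts in Hvem-/- cells and 2618, 2904 and 2719 in WT cells. The 11 GC B cell and B cell markers of the list had a median log2 fold change of -0.002 and did not move alike. Of these, 4 had an unadjusted p under 0.05 with lower values in Hvem-/- cells, Cd79a, Cd79b, S1pr2 and Pax5 (log2 fold changes of -0.45, -0.35, -0.31 and -0.30), and none passed the threshold used here (smallest adjusted p = 0.233, edgeR). Over all tested genes, 5.22% were lower in Hvem-/- cells at that unadjusted p. A normalized count is a gene's reads divided by the size factor of its library, so that libraries can be compared; it does not correct for gene length.

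An ISRE core was found near the start of 13 of the 30 members that have a promoter window in RefSeq (build GRCm38.p6, which has the coordinates of mm10). The window ran from 250 bases before to 50 bases after the transcription start, and the core searched was GAAANNGAAA on either strand, read as TTTCNNTTTC on the other, with overlapping matches allowed. Some genes have several windows, and a gene counted once if any of them held a core. This share was 43.3% of the members, against 3.99% of all 27025 genes with a window, and 3.44% of all 32851 windows of that length held a core. The members were chosen for known interferon roles, so a share above that of all genes could be foreseen from the choice. The sites below are printed because they belong to members described later: Ddx58 and Gbp2 have the smallest p, Eif2ak2 and Stat2 are among the members with the highest levels, Rsad2 has the widest range within the Hvem-/- group of the tested members, and Oas1a and Isg15 had too few reads to test. Capitals mark the core, or several overlapping cores, and the sequence is the strand on which the gene is transcribed.
Ddx58: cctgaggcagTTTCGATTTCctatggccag
Gbp2: actcttttagTTTCACTTTCactgtcttaa
Eif2ak2: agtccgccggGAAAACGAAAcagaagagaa
Stat2: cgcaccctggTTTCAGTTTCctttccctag
Rsad2: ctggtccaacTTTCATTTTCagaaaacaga
Oas1a: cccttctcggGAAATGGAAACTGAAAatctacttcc
Isg15: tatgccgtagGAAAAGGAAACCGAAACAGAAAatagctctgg

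These stretches lie at chr4:40239804-40239833 (Ddx58, minus strand), chr3:142620594-142620623 (Gbp2, plus), chr17:78882535-78882564 (Eif2ak2, minus), chr10:128270266-128270295 (Stat2, plus), chr12:26456553-26456582 (Rsad2, minus), chr5:120907520-120907555 (Oas1a, minus) and chr4:156200865-156200906 (Isg15, minus). The core of Gbp2 begins 59 bases before the start and that of Ddx58 begins 2 bases after it. Isg15 carries 3 overlapping cores that begin 78 bases before its start, the longest such run among the members. The other members with a core were Ifih1, Oas3, Ifit1, Ifit3, Bst2 and Gbp3, and Ifit1 and Ifit3 had 2 separate sites each. The neighbouring genes Ifit3 and Ifit1 are shown with both.
Ifit3, first site: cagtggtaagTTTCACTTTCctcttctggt
Ifit3, second site: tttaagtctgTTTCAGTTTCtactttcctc
Ifit1, first site: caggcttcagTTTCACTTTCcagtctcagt
Ifit1, second site: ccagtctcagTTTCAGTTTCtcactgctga

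In both genes the first site has the core TTTCACTTTC and the second has TTTCAGTTTC. Ifit3 lies at chr19:34583363-34583392 and chr19:34583397-34583426, and Ifit1 at chr19:34640775-34640804 and chr19:34640794-34640823, all on the plus strand. The GAS core TTCNNNGAA, which reads the same on both strands, was in a window of 11 of 30 members (36.7%), against 9.55% of all genes with a window and 8.30% of all windows. Here too a higher share could be foreseen from the choice of members. In 3 members both elements were found, and in 9 neither. At 1 of the 15 ISRE sites, that of Bst2, the core overlapped a GAS core. Oas2, Mx1, Mx2, Usp18, Rtp4, Dhx58, Zbp1, Parp9 and Parp14 had no window. A match is a description of letters and does not show binding.

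The members spanned a wide range of levels in these GC B cells. Per kilobase of transcript, the normalized count of Samhd1 was 725 ± 44.3 in Hvem-/- cells and 845 ± 55.1 in WT cells (SD, n = 3 each), the highest among the members. SAMHD1 breaks down the deoxynucleotides that viruses need to copy their genomes. Trim25, whose product ubiquitinates the RNA sensor RIG-I, came next at 149.5 ± 17.9 per kilobase in Hvem-/- cells and 167 ± 20.6 in WT cells. Irf1, Parp14, Stat2, Eif2ak2 and Ifngr1 followed, with means over all libraries of 69.2 to 90.0 per kilobase, and these neighbours in the order did not separate beyond their spread. At the low end stood Mx1, Mx2 and Isg15, with 24, 4 and 1 reads over all 6 libraries. Members with an ISRE core had a median level of 5.87 per kilobase (0.165 to 79.3). Members whose window had none had 26.6 (3.41 to 785), and these include the 4 receptor chains, Samhd1, Trim25 and Adar. The 9 members without a window are in neither group. Whether the level goes with the core was not tested.

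**Figure D1:**
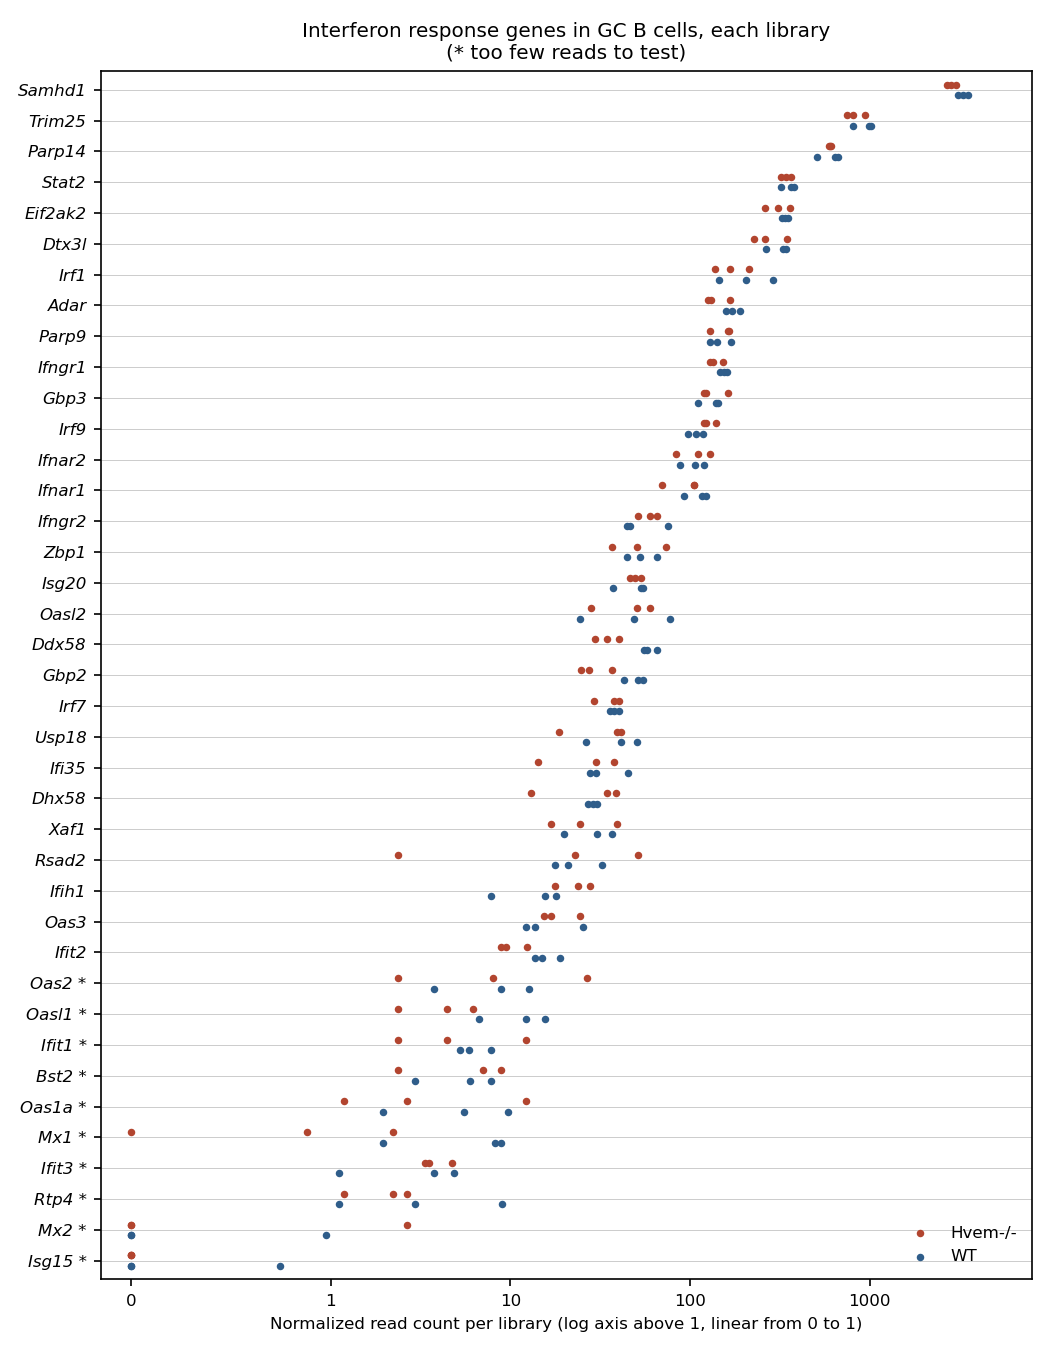
Normalized read count of each of the 39 members (x axis, logarithmic above 1 and linear from 0 to 1) in each library, with Hvem-/- (red) drawn above WT (blue) in each row and members ordered by mean. Samhd1 was highest in every library, Isg15 had a read in 1 library only, and the 10 starred members had too few reads to test.

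None of the 29 tested members differed between Hvem-/- and WT GC B cells at an adjusted p under 0.01. The smallest adjusted p among them was 0.293 and the largest 0.990 (edgeR's quasi-likelihood test, Benjamini-Hochberg adjustment over all 9653 genes). Over all tested genes, 21 passed, or 0.218%. DESeq2 and limma also called 0 members. At an unadjusted p under 0.05, edgeR, DESeq2 and limma on log2(value + 1) each gave 3 members, and in edgeR these were Ddx58, Gbp2 and Samhd1, all with lower values in Hvem-/- cells. The background for that count was 5.22% of all tested genes in the lower direction. No member had an unadjusted p under 0.05 in the higher direction, where the background was 6.72%. The count of 3 became 1 without Hvem-/- replicate 6, without WT replicate 3 or without WT replicate 5, and 4 without Hvem-/- replicate 2.

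The fold changes were small. The median log2 fold change of the tested members was -0.13, against -0.0058 over all tested genes, and 10 lay above 0 and 19 below. The median was -0.01 without Hvem-/- replicate 4. For 20 of the 29 members (69.0%) the unadjusted 95% interval lay inside a 2-fold change in either direction, the share being 69.0% over all tested genes as well. A 2-fold higher level was outside the interval for 26 members, all but Ifih1, Oas3 and Rsad2. A 2-fold lower level was outside it for 22. The summed normalized counts of all 39 members were 6833, 6889.7 and 6748 in Hvem-/- libraries and 7688, 7772 and 7372 in WT libraries, so the groups did not overlap. Without the 2 most abundant members, Samhd1 and Trim25, the sums were 3402, 2916 and 3106 in Hvem-/- libraries and 3393, 3216 and 3462 in WT libraries, and the groups overlapped.

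**Figure D2:**
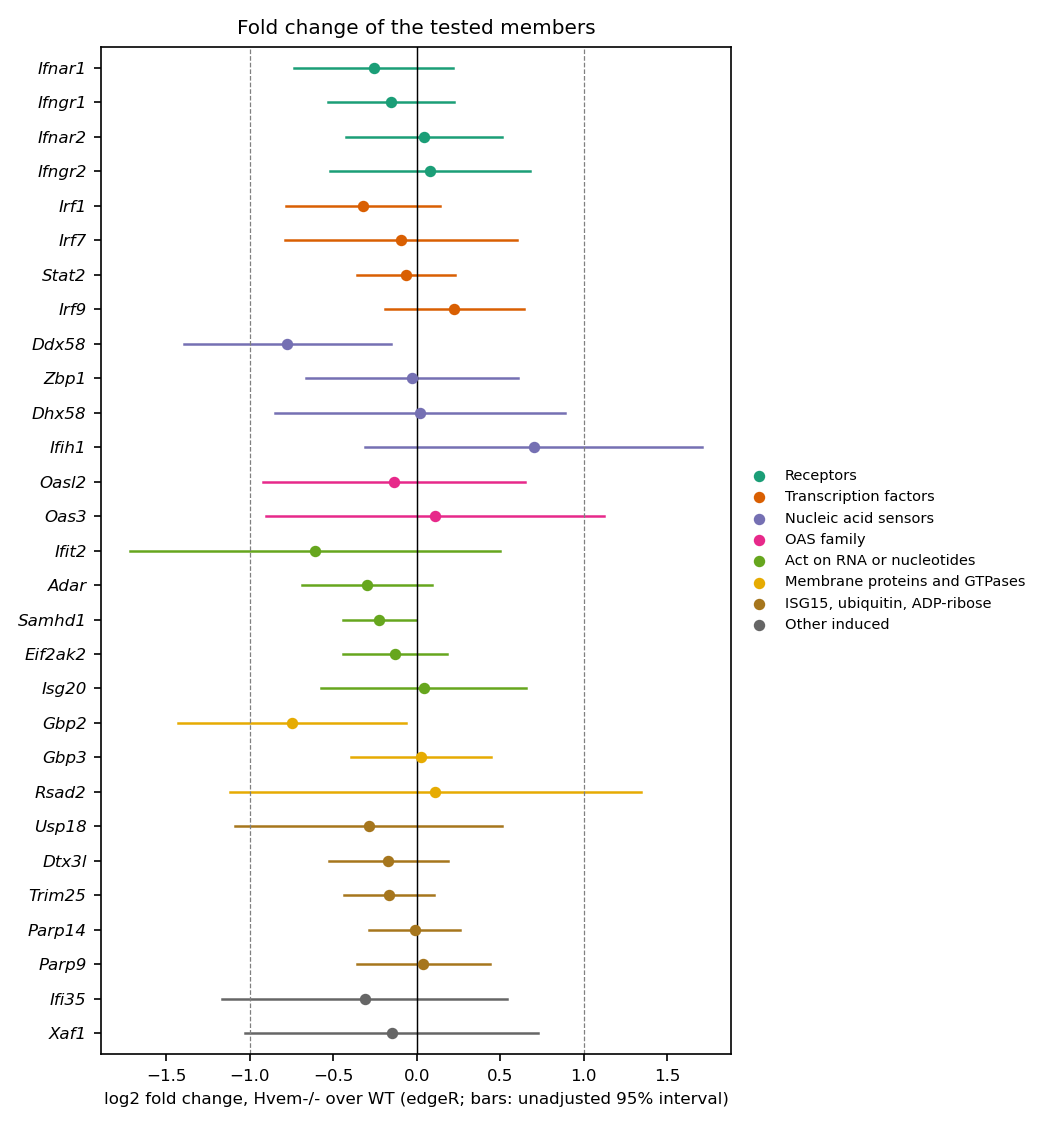
Log2 fold change, Hvem-/- over WT (x axis), of the 29 tested members by role, as points with unadjusted 95% intervals; dashed lines mark a 2-fold change. The intervals of Ddx58, Gbp2 and Samhd1 lie below 0, and the other 26 include it.

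All 4 receptor chains were read in every library. Ifnar1 had 105, 69.8 and 105 normalized counts in Hvem-/- cells and 117, 123 and 92.6 in WT cells. Its partner Ifnar2 had 129, 110.4 and 83.9 in Hvem-/- cells and 106, 119.8 and 88.1 in WT cells. In both chains the groups overlapped, with log2 fold changes of -0.26 ± 0.23 for Ifnar1 and 0.05 ± 0.22 for Ifnar2 (SE; adjusted p = 0.701 and 0.958, edgeR). Ifngr1, the ligand-binding chain for interferon gamma, had 153, 129.8 and 134 in Hvem-/- cells and 155, 159.8 and 146 in WT cells. Ifngr2, the signalling chain, had 60.1, 51.2 and 65.0 in Hvem-/- cells and 75.2, 44.4 and 46.3 in WT cells. Their log2 fold changes were -0.15 ± 0.18 and 0.08 ± 0.29 (SE; adjusted p = 0.791 and 0.944, edgeR), and a 2-fold change in either direction lay outside the interval of each of the 4 chains. Ifnar2, Ifnar1 and Ifngr2 are neighbours on chromosome 16, and Ifngr1 is on chromosome 10.

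Of the 4 transcription factors among the members, none had an unadjusted p under 0.05. Stat2 had 363, 321 and 342 normalized counts in Hvem-/- cells and 365, 319.6 and 381 in WT cells, nearly the same span in each group. Irf9, the DNA-binding partner of STAT2, had 139, 122 and 119.4 in Hvem-/- cells and 97.6, 118.7 and 108 in WT cells. It was the 1 tested member whose Hvem-/- libraries all lay above the WT libraries, with the closest libraries apart by less than 1 normalized count; 8.74% of all tested genes had such a separation. Its log2 fold change was 0.22 ± 0.20 (SE; adjusted p = 0.701, edgeR). Irf7, which drives type I interferon production, had 40.1, 29.1 and 37.8 in Hvem-/- cells and 40.0, 37.7 and 35.8 in WT cells.

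Irf1, a factor that interferon gamma induces strongly, varied most among the transcription factors. It had 213, 166 and 137 normalized counts in Hvem-/- cells and 205, 144 and 288 in WT cells, so that WT replicate 5 stood above the rest and the groups overlapped. The log2 fold change was -0.32 ± 0.22 (SE; adjusted p = 0.601, edgeR), and -0.02 without WT replicate 5. For Stat2 and Irf7 the log2 fold changes were -0.06 ± 0.14 and -0.09 ± 0.33 (SE; adjusted p = 0.897 and 0.942, edgeR), and both were above 0 after a correction for GC content and length, at 0.04 and 0.11. Irf9 shares its strand and part of its span with Rnf31, and Irf7 overlaps Phrf1 on the other strand, so reads of these pairs may not be fully separated.

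Ddx58, which encodes the RNA sensor RIG-I, had the smallest p among the members. It had 40.1, 34.4 and 29.6 normalized counts in Hvem-/- cells and 57.6, 65.5 and 55.3 in WT cells, from 25 to 39 reads per Hvem-/- library and 59 to 74 per WT library. All 3 Hvem-/- libraries lay below all 3 WT libraries. The log2 fold change was -0.77 ± 0.30 (SE), a fold between 0.381 and 0.897 by the unadjusted 95% interval. The difference did not pass the threshold (adjusted p = 0.293, edgeR). Under 20 alternative settings the log2 fold change stayed below 0 in each, between -0.89 and -0.67, and no adjusted p was under 0.221.

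Ifih1, which encodes the related sensor MDA5, had the highest fold change of the members, in the other direction. Its normalized counts were 27.8, 17.7 and 23.6 in Hvem-/- cells and 15.6, 7.77 and 17.9 in WT cells, and Hvem-/- replicate 4 lay just inside the WT range. The log2 fold change was 0.70 ± 0.48 (SE; adjusted p = 0.600, edgeR) with an interval that ran up to a fold of 3.27. Dhx58, the third receptor of the RIG-I family, had 34.5, 38.9 and 13.005 in Hvem-/- cells and 30.3, 28.9 and 26.9 in WT cells, and the log2 fold change of 0.02 kept its sign in 8 of 20 alternatives. Zbp1, a sensor of Z-form nucleic acids, had 36.8, 50.3 and 73.3 in Hvem-/- cells and 52.7, 65.5 and 44.8 in WT cells. The 3 genes of the RIG-I family thus had fold changes below 0, near 0 and above 0, and whether these differ from each other was not tested.

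The members that act on RNA or on nucleotides included the third gene with an unadjusted p under 0.05. Samhd1 had 2679.8, 3027 and 2834 normalized counts in Hvem-/- cells and 3309.8, 3538 and 3105 in WT cells. The groups did not overlap, though Hvem-/- replicate 4 and WT replicate 5 were close. Its log2 fold change was -0.23 ± 0.10 (SE; adjusted p = 0.397, edgeR), a fold between 0.735 and 0.995. The unadjusted p was under 0.05 in 10 of 20 alternatives, and not after the correction for GC content and length, where the log2 fold change was -0.19. Samhd1 held more reads than any other member, 18967 over all libraries, and so had the narrowest interval.

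Adar, the enzyme that edits adenosine to inosine in double-stranded RNA, had 167, 126 and 130.1 normalized counts in Hvem-/- cells and 158, 189 and 172 in WT cells. Hvem-/- replicate 2 lay within the WT range. Its log2 fold change was -0.30 ± 0.19 (SE; adjusted p = 0.565, edgeR). Eif2ak2 encodes PKR, the kinase that halts translation on double-stranded RNA, and had 263, 309 and 359 in Hvem-/- cells and 324, 337 and 352 in WT cells. Hvem-/- libraries gave both the lowest and the highest value, with a log2 fold change of -0.13 ± 0.15 (SE; adjusted p = 0.780, edgeR). Isg20, an exonuclease gene, had 46.1 to 53.5 in Hvem-/- cells and 37.3 to 54.7 in WT cells.

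The IFIT proteins bind viral RNA and are among the strongest targets of type I interferon. Ifit2 was the only IFIT gene of the list with enough reads to test, at 8.91, 12.4 and 9.46 normalized counts in Hvem-/- cells and 13.7, 18.9 and 14.9 in WT cells. The groups did not overlap, but the counts were 8 to 20 reads per library and the log2 fold change of -0.61 ± 0.53 (SE; adjusted p = 0.696, edgeR) had an interval from a fold of 0.304 to 1.41. Ifit1 had 11, 5 and 2 reads in Hvem-/- libraries and 6, 7 and 7 in WT libraries. Ifit3 had 3, 4 and 4 reads in Hvem-/- libraries and 5, 1 and 5 in WT libraries. Ddx58, Gbp2, Samhd1 and Ifit2 were thus the 4 tested members whose Hvem-/- libraries all lay below the WT libraries, where 8.09% of all tested genes did so.

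The OAS family includes enzymes that sense double-stranded RNA and activate RNase L, though not every member of the family does so. Oas3 had 24.5, 16.8 and 15.4 normalized counts in Hvem-/- cells and 13.7, 12.2 and 25.4 in WT cells. Oasl2 had 60.1, 28.3 and 50.8 in Hvem-/- cells and 77.1, 24.4 and 48.5 in WT cells, a 3.16-fold range within the WT group alone. Neither gene passed the threshold, with log2 fold changes of 0.11 and -0.13 (adjusted p = 0.952 and 0.920, edgeR). Oas1a, Oas2 and Oasl1 had too few reads to test. Oas2 had 24, 9 and 2 reads in Hvem-/- libraries and 13, 8 and 5 in WT libraries, and Oas1a had 11, 3 and 1 in Hvem-/- libraries and 2, 5 and 13 in WT libraries. Oasl1 had 4, 7 and 2 reads in Hvem-/- libraries, all below the 16, 11 and 9 reads of the WT libraries.

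Gbp2, a guanylate-binding GTPase that interferon gamma induces and that attacks the vacuoles of intracellular pathogens, had 36.8, 27.4 and 24.8 normalized counts in Hvem-/- cells and 43.0, 54.4 and 51.5 in WT cells. The groups did not overlap. Its log2 fold change was -0.75 ± 0.33 (SE), a fold between 0.371 and 0.958, and it did not pass the threshold (adjusted p = 0.365, edgeR). The direction held in 20 of 20 alternatives, with an unadjusted p under 0.05 in 15. Its neighbour Gbp3, which belongs to the same gene family and lies 47.4 kb away on chromosome 3, had 119.2, 122 and 162 in Hvem-/- cells and 111, 139 and 143 in WT cells, a log2 fold change of 0.02 ± 0.20 (SE; adjusted p = 0.979, edgeR). Reads of near-identical stretches of such paralogs could be split differently by another counting method, which was not tested.

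Rsad2, which encodes the antiviral enzyme viperin, varied more within the Hvem-/- group than any other tested member. It had 51.2, 23.0 and 2.36 normalized counts in Hvem-/- cells, a 21.7-fold range, and 32.2, 17.8 and 20.9 in WT cells. The log2 fold change was 0.11 ± 0.59 (SE; adjusted p = 0.960, edgeR) and kept its direction in 9 of 19 alternatives. The dynamin-like genes Mx1 and Mx2 were near the limit of detection, with 2, 1 and 0 reads of Mx1 in Hvem-/- libraries and 2, 8 and 11 in WT libraries, and 0, 3 and 0 reads of Mx2 in Hvem-/- libraries and 1, 0 and 0 in WT libraries. Bst2, which tethers budding virions, had 8, 8 and 2 reads in Hvem-/- libraries and 3, 7 and 8 in WT libraries. Rtp4 had 2, 3 and 1 reads in Hvem-/- libraries and 3, 1 and 12 in WT libraries.

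**Figure D3:**
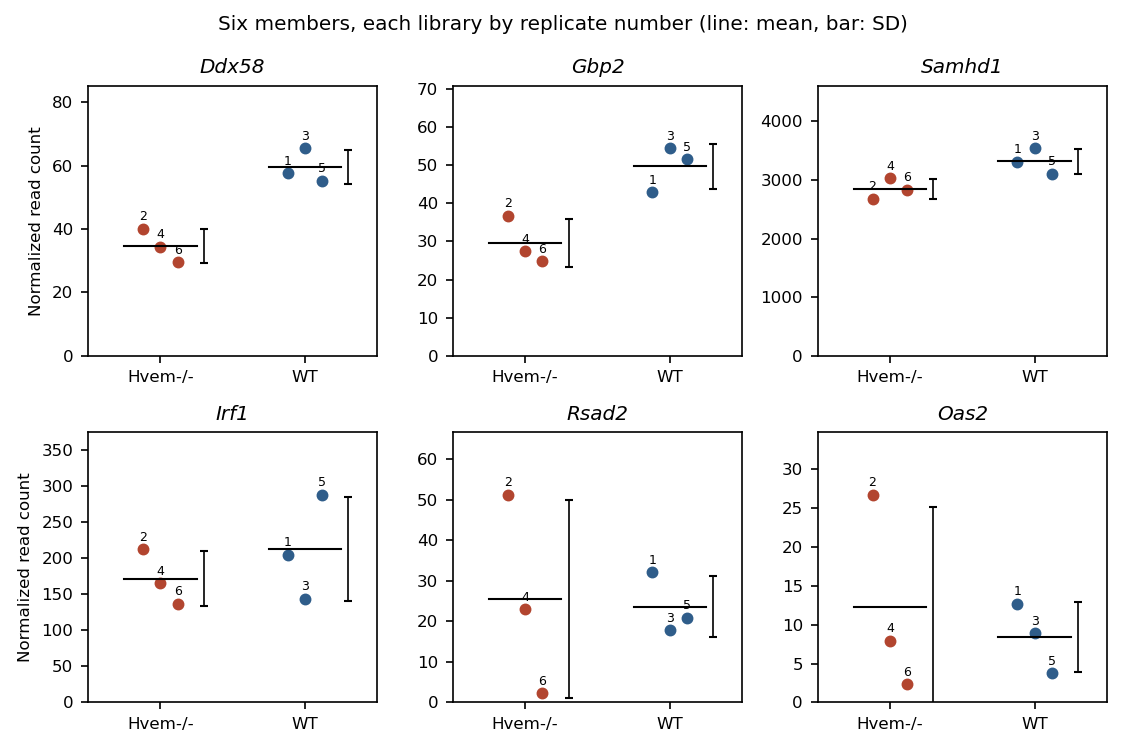
Normalized read counts of 6 members in each library (points, labelled by replicate number), Hvem-/- left and WT right, with the mean (line) and SD (bar, n = 3). Ddx58, Gbp2 and Samhd1 were lower in each Hvem-/- library than in any WT library, Irf1 was highest in WT replicate 5, and Rsad2 and Oas2 were highest in Hvem-/- replicate 2.

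Hvem-/- replicate 2 had the highest reads of Oas1a among the Hvem-/- libraries, and of Oas2, Ifit1 and Rsad2 likewise. Other members went elsewhere. Oasl1, Ifit2 and Mx2 were highest in Hvem-/- replicate 4, at 7, 14 and 3 reads. Zbp1 was lowest in replicate 2, with 33, 57 and 62 reads in Hvem-/- libraries. Over all 6 libraries, 6 of the 29 tested members were highest in Hvem-/- replicate 2. That library had the highest summed count of macrophage and monocyte markers, but these markers did not move alike. Of the 5 tested, 3 (Lyz2, Csf1r and Itgam) were highest in Hvem-/- replicate 2, and Cd68 and Mrc1 were highest in WT replicate 5. C1qc had 0 reads in Hvem-/- replicate 2 and 24 in WT replicate 5. The summed normalized counts of the 11 markers of that list were 148 to 419 in Hvem-/- libraries, with 419 in replicate 2, and 212 to 299 in WT libraries. Lyz2 had 126, 33 and 31 reads and Itgam 130, 27 and 38 reads in Hvem-/- libraries, against 94, 45 and 125 reads of Lyz2 and 94, 48 and 69 of Itgam in WT libraries. C1qa had no read in any library, and Cd14 and Fcgr1 had 1 read each over all libraries. C1qb was read in every library, with 2, 3 and 2 reads in Hvem-/- libraries and 3, 1 and 1 in WT libraries. Of the 5 markers tested, none had an unadjusted p under 0.05 between genotypes. The part of these cells in the members' values was not tested.

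The 10 members with too few reads, summed, had 72.4, 38.0 and 16.6 normalized counts in Hvem-/- libraries and 49.8, 53.3 and 53.0 in WT libraries. Isg15, the ubiquitin-like modifier that is often used to read out an interferon response, had 0 reads in every Hvem-/- library, which allows up to 3 reads in the group's 8336513 (counting error only), and 1 read in the WT libraries together. Of 10 markers of plasmacytoid dendritic cells, the main makers of type I interferon, Siglech had 0 reads in each Hvem-/- library and 1, 2 and 0 in WT libraries, and Cd300c, Klk1 and Cox6a2 had none. Ccr9, Ly6d and Runx2 were read, with 71, 75 and 114 reads over all libraries. The list, which holds the member Bst2, summed to 2292 to 3132 normalized counts in Hvem-/- libraries and 3160 to 3572 in WT libraries, nearly all of it from Spib and Irf8, which B cells also express. Of its 5 tested genes, Spib had an unadjusted p under 0.05, with 1548, 1794 and 1292 in Hvem-/- cells and 2005, 1946 and 1718 in WT cells (log2 fold change -0.29, adjusted p = 0.343, edgeR). The part of these cells in the members' values was not tested.

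Trim25, Parp14, Dtx3l and Parp9, genes of ubiquitin and ADP-ribose transfer, were among the better expressed members. Trim25 had 752, 947 and 809 normalized counts in Hvem-/- cells and 985, 1019 and 805 in WT cells, with a log2 fold change of -0.17 ± 0.13 (SE; adjusted p = 0.652, edgeR). WT replicate 5 lay within the Hvem-/- range. Parp14, an ADP-ribosyltransferase gene linked to STAT6 signalling in B cells, had 590.3, 601 and 610.1 in Hvem-/- cells and 662, 507 and 638 in WT cells. Its log2 fold change was -0.01 ± 0.13 (SE; adjusted p = 0.985, edgeR), and a fold under 0.821 or over 1.198 lay outside the interval. Usp18, which strips ISG15 from proteins and damps IFNAR2 signalling, had 41.2, 18.5 and 39.0 in Hvem-/- cells and 26.4, 41.1 and 50.8 in WT cells.

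Dtx3l and Parp9 encode a pair of proteins that work as a complex. Dtx3l had 346, 228 and 261 normalized counts in Hvem-/- cells and 264, 342 and 330.1 in WT cells, with a log2 fold change of -0.17 ± 0.17 (SE; adjusted p = 0.744, edgeR). Parp9 had 164, 128.9 and 162 in Hvem-/- cells and 169.9, 142 and 128.4 in WT cells. In both genes the groups overlapped. The genes lie head to head on chromosome 16 and overlap by 682 bases on opposite strands, so reads of the shared stretch cannot be assigned without strand. Ifi35 had 37.9, 30.02 and 14.2 in Hvem-/- cells and 44.9, 29.96 and 27.6 in WT cells, and the apoptosis-linked Xaf1 had 24.5, 16.8 and 39.0 in Hvem-/- cells and 30.3, 19.97 and 36.6 in WT cells.

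The members did not move as a block across libraries. The highest of the 6 values fell in Hvem-/- replicates 2, 4 and 6 for 6, 1 and 4 of the 29 tested members, and in WT replicates 1, 3 and 5 for 6, 8 and 4. The lowest fell in the same Hvem-/- replicates for 5, 8 and 7 members and in the WT replicates for 2, 6 and 1. The median deviation of the tested members from their own mean over all libraries, on the log2 scale, was 0.11, -0.12 and -0.08 in Hvem-/- libraries and 0.13, 0.07 and 0.10 in WT libraries. Hvem-/- replicate 2 thus lay within the WT range, and the other Hvem-/- libraries lay below it.

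Of the other genes of the pathway, 84 of 95 were tested and none passed the threshold in edgeR. At an unadjusted p under 0.05, 3 were higher and 6 were lower in Hvem-/- cells, against backgrounds of 6.72% and 5.22%, and the median log2 fold change was -0.09. Among 11 further signalling genes, Irf2, a repressor of interferon-induced transcription, had 601, 772 and 968 normalized counts in Hvem-/- cells and 579, 664 and 515 in WT cells (log2 fold change 0.41 ± 0.15 SE, adjusted p = 0.275, edgeR). Ptpn2, whose phosphatase acts against Janus kinases, and Irf8, a factor of B cell and myeloid development, had log2 fold changes of 0.33 and -0.21 (adjusted p = 0.397 and 0.575, edgeR).

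Among 11 further sensing genes, the endosomal DNA sensor gene Tlr9 had 244, 284 and 251 normalized counts in Hvem-/- cells and 347, 374 and 282 in WT cells (log2 fold change -0.36 ± 0.15 SE, adjusted p = 0.341, edgeR). The groups overlapped at Hvem-/- replicate 4 and WT replicate 5. Ikbke and Unc93b1 had log2 fold changes of -0.66 and -0.16 (adjusted p = 0.557 and 0.694, edgeR).

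Further type I induced genes gave 5 of 34 with an unadjusted p under 0.05 and lower values in Hvem-/- cells, and none with higher values. The backgrounds were 5.22% of all tested genes in the lower and 6.72% in the higher direction. Shisa5 had the smallest p, with 366, 337 and 419.7 normalized counts in Hvem-/- cells and 482, 528 and 503 in WT cells (log2 fold change -0.44 ± 0.13 SE, adjusted p = 0.199, edgeR). Ly6e and Slfn5 came next, with log2 fold changes of -0.33 and -0.95 (adjusted p = 0.277 and 0.318, edgeR). The groups did not overlap in Slfn5, which had 24.5, 27.4 and 13.005 in Hvem-/- cells and 43.9, 33.3 and 48.5 in WT cells. Ly6e had 1451, 1771 and 1282 in Hvem-/- cells and 2025, 1875 and 1752 in WT cells, where Hvem-/- replicate 4 lay inside the WT range.

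Further type II induced genes gave 1 of 28 with an unadjusted p under 0.05, in the higher direction, where the background was 6.72% of all tested genes. This was Irgm1, an immunity-related GTPase gene, with 53.5, 33.6 and 65.0 normalized counts in Hvem-/- cells and 32.2, 16.6 and 31.4 in WT cells (log2 fold change 0.89 ± 0.37 SE, adjusted p = 0.332, edgeR). Tapbp and Gbp9 had log2 fold changes of -0.42 and 0.32 (adjusted p = 0.462 and 0.532, edgeR). Interferon genes themselves were nearly unread: of 17 ligand genes in the table, 15 had no read in any library. Ifnk had 5, 4 and 4 reads in Hvem-/- libraries and 4, 6 and 4 in WT libraries, and Ifng had 0 in each Hvem-/- library and 1, 0 and 5 in WT libraries.

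**Figure D4:**
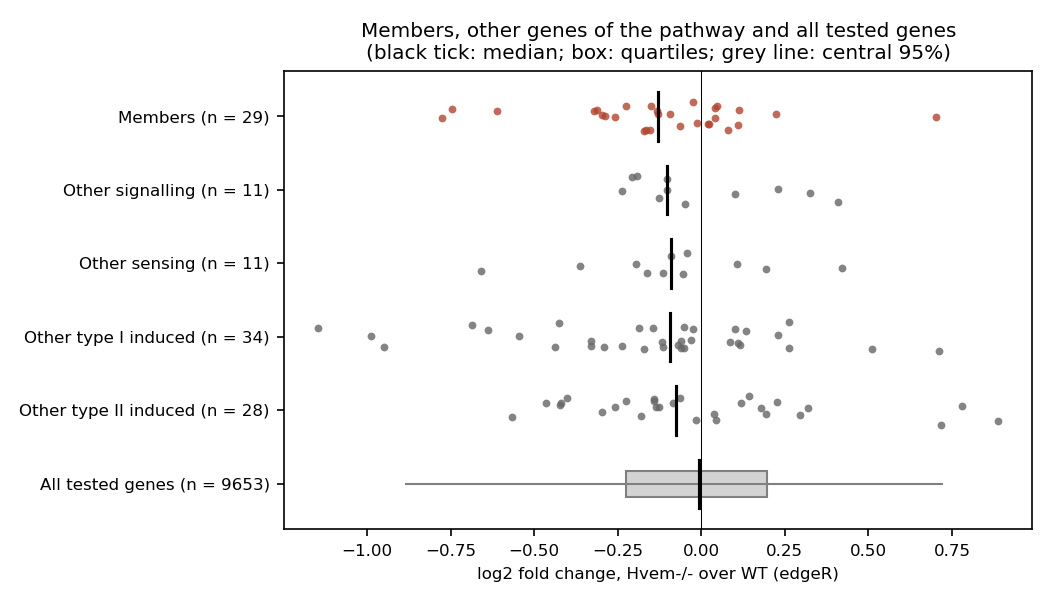
Log2 fold change, Hvem-/- over WT (x axis), of the tested members (red), the 4 other lists of pathway genes (grey) and all 9653 tested genes (box for the quartiles, line for the central 95%); black ticks mark medians. The median was -0.13 for the members, -0.10 to -0.08 for the other lists and near 0 for all genes.

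Markers of T cells, which GC sorts can carry along, had a lower sum in Hvem-/- libraries. The 15 markers of the list summed to 361 to 547 normalized counts in Hvem-/- libraries and 658 to 705 in WT libraries, with Cd3e at 78.0, 68.0 and 50.8 in Hvem-/- cells and 106, 127 and 121.7 in WT cells. Of the 12 tested, 10 had a log2 fold change below 0, and Lck and Il7r lay above it at 0.19 and 0.50. An unadjusted p under 0.05 was found for 4, all with lower values in Hvem-/- cells, and none passed the threshold (edgeR). The background in the lower direction was 5.22% of all tested genes. Of the 12, 4 separated the groups, Cd3e among them, all with lower values in Hvem-/- cells. The untested Cd3d and Thy1 had 26 and 25 reads in the Hvem-/- libraries together and 32 and 31 in the WT libraries. Cd3g, also untested, had 21 and 56 reads. Among the tested members, Ddx58, Gbp2, Samhd1 and Ifit2 separated the groups in the lower direction, and Irf9 did so in the higher direction. The backgrounds for such a separation were 8.09% of all tested genes in the lower and 8.74% in the higher direction. The part of T cells in the members' values was not tested. Of 7 tested markers of follicular B cells, Fcer2a passed the threshold, with 214, 213.7 and 169 in Hvem-/- cells and 495, 406 and 305 in WT cells (adjusted p = 0.00704, edgeR), and the list summed to 782 to 818 in Hvem-/- libraries and 961 to 1218 in WT libraries; the part of these cells was not tested either. In these bulk samples fewer cells of a type and less RNA per cell cannot be told apart.

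Base composition also moved with genotype over all genes. When the tested genes were split into 10 equal groups by GC content, the median log2 fold change was 0.21 in the group of lowest GC content and -0.26 in that of highest GC content. The tested members had a median GC content of 49.8%, against 48.8% for all tested genes. With a correction for GC content and length, the members' median log2 fold change was -0.08, and those of Ddx58 and Gbp2 were -0.80 and -0.76.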

How the data were processed

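GC B cell RNA from 3 Hvem-/- and 3 WT samples was amplified (Ovation RNA-seq System V2) and sequenced as 100-base pairs. The study's methods name STAR and DESeq2, and the submitters' processing notes name CASAVA, TopHat2 2.0.8b, Cufflinks 2.1.1 and mm10; the strand setting is not given in the sources used here. The deposited values are a signal: the authors' read counts per gene divided by 1 DESeq2 size factor per sample. In each column all values were whole multiples of 1 read (100% within 1e-06), so reads were recovered and tested with edgeR 4.0.16 (R 4.3.3); limma 3.58.1 on log2(value + 1) and DESeq2 1.42.0 are alternatives. The authors' deposited columns of mean signal, log2 fold change and its error, Wald score and p-values were not used.

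Genes were kept by filterByExpr, scaled by TMM and fitted with genotype alone by quasi-likelihood, with Benjamini-Hochberg adjustment over 9653 genes and a threshold of 0.01. Members and lists were chosen with earlier results of these data known. Values in every sample are given for the members with the 8 smallest p, the 6 highest means, the receptors and the transcription factors, and for others whose libraries differ widely or whose reads were too few; of each other list, the 3 genes with the smallest p are named. Lengths and GC content came from GENCODE vM21 and promoter sequence from RefSeq; 20929 symbols matched directly and 1918 by synonym. Replicate libraries differed by more than sampling noise, so none was counted as a duplicate. Simulated data were used to test the code. Alternatives were other scalings, filters, tools, GC and length correction, leaving out each library, and a block for the mouse, fitted for all 6 ways to pair the samples.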

Additional observations from a re-analysis of the deposited data

How the results depend on the processing

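No member passed the adjusted threshold under any of 20 alternative settings or at an adjusted p under 0.05, and neither did any other gene of the pathway, for which these alternatives were added after seeing the data. No paired analysis was possible because no source pairs the samples; a block for the mouse was therefore fitted for all 6 ways to pair them. Among all genes, calls numbered 52 with DESeq2, 84 without a filter on low counts, 11 with correction for GC content and length, 49 at an adjusted p under 0.05, and 17 to 61 under the pairings (17, 18, 39, 44, 48 and 61). Leaving out 1 library gave 3 to 31 calls among all genes, 1 to 4 members at an unadjusted p under 0.05, and a member median of -0.15 to -0.0085. Under 1 pairing (Hvem-/- 2 with WT 3, 4 with 5, 6 with 1), 1 member had an unadjusted p under 0.05. Log2 fold changes near 0 changed sign: Parp14 was 0.0055 and 0.0054 in limma with 1 and 4 added and -0.12 to 0.059 without 1 library, Ifnar2 was -0.10 to 0.20 and Ifngr2 -0.0476 to 0.36 without 1 library, Irf7 was 0.11 and Stat2 0.0383 after GC and length correction, and Irf7 was -0.19 to 0.0418 without 1 library. The cause was not tested. Depth limits the 10 members with too few reads, for which the main fit gave no test of a difference.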
